A study of Homo sapiens with 18 samples.

Results

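This is the baseline difference between 2 breast cancer cell lines, measured by RNA sequencing in the libraries that received no nicotinamide (NAM): 3 untreated MDA-MB-231 libraries against 3 untreated BT20 libraries, 6 of the 18 libraries of the study. The other 12 were untreated MDA-MB-468 cells and the 3 lines after 20 mM NAM for 48 h. All 3 lines are established human triple-negative breast cancer (TNBC) lines, that is, lines without the estrogen receptor, the progesterone receptor or amplified HER2, and each stands for the tumor of a single patient. BT20 and MDA-MB-468 came from the Korea Cell Line Bank and MDA-MB-231 from the American Type Culture Collection. BT20 was grown in RPMI and the others in DMEM, each with 10% fetal bovine serum, so line and medium cannot be told apart in this comparison. MDA-MB-468, an epithelial line grown in the same medium as MDA-MB-231, is given beside it where that helps. Nothing states that libraries of a line came from separate cultures, so the p-values measure the spread between libraries, which may be technical.

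Genes entered the comparison when their FPKM (fragments scaled to gene length and sequencing depth) was at least 1 in at least 3 of the 6 libraries, which left 15327 of 60676 genes. A log2 fold change is the difference of mean quantile-normalized log2(FPKM + 1), MDA-MB-231 minus BT20, so it understates the change of weakly expressed genes. A gene was called higher or lower in MDA-MB-231 at a Benjamini-Hochberg adjusted p under 0.05 in limma and an absolute log2 fold change above 0.58. FPKM are given as deposited, in the order of replicates 1, 2 and 3.

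Epithelial cells hold each other through E-cadherin junctions, are polarised and have a keratin skeleton. They keep a set of transcription and splicing factors that maintain this state. In the epithelial to mesenchymal transition (EMT), factors of the ZEB, SNAI and TWIST families shut down the junction genes, and vimentin, proteases and matrix genes are switched on. The microRNAs of the miR-200 family target ZEB1 and ZEB2, and ZEB1 represses the miR-200 genes in turn. The basal TNBC lines in culture range from epithelial to mesenchymal, and MDA-MB-231 is widely used as a mesenchymal, invasive example.

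The host transcripts of these microRNAs were among the genes that separated the lines. The mature sequences that lie inside them, on the same strand, are shown because their seeds group them (RefSeq, GRCh38.p14; bases 2 to 8, the seed, in capitals).
hsa-miR-200c-3p: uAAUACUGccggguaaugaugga
hsa-miR-141-3p: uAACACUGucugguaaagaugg
hsa-miR-205-5p: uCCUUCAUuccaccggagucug
hsa-miR-221-3p: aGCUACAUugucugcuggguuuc
hsa-miR-222-3p: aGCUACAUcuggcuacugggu
The miR-200c and miR-141 sequences share a host, MIR200CHG (chr12:6963226-6964447, plus strand), and miR-205 lies in MIR205HG (chr1:209428817-209432848, plus strand). The last 2 have the same seed and share MIR222HG (chrX:45745210-45770274, minus strand). MIR200CHG was 18.97, 14.3 and 13.9 FPKM in the BT20 libraries and 0 in all MDA-MB-231 libraries, and 11.4 to 21.4 in MDA-MB-468. MIR205HG was 22.9, 21.3 and 21.2 FPKM in BT20, 0 in all MDA-MB-231 libraries and 5.80 to 11.3 in MDA-MB-468. MIR222HG went the other way, with 1.15, 1.14 and 0.818 FPKM in BT20 against 14.3, 6.06 and 5.51 in MDA-MB-231 (log2 fold change 2.52 ± 0.34, SE, adjusted p = 0.00082). The hosts of the miR-200 and miR-205 sequences were thus read in both epithelial lines and in no MDA-MB-231 library, while the host of miR-221 and miR-222 was higher in every MDA-MB-231 library than in any BT20 library. The mature microRNAs themselves were not measured.

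The lines differed in most of the genes tested. Of 15327 genes, 4035 were higher in MDA-MB-231 (26.3%) and 3933 were lower (25.7%), together 52.0%. By more than 4-fold on the log2(FPKM + 1) scale, 793 genes were higher (5.17%) and 906 lower (5.91%), and the FPKM of the lines did not overlap for 70.0% of genes. The first principal component separated the lines and held 89.9% of the variance. The second held 8.07% and set library 1 of each line apart from libraries 2 and 3 of both. Without both libraries numbered 1, 4341 genes were higher and 4174 lower. With all 6 libraries and quantile normalization, protein-coding genes leaned to MDA-MB-231, with 3286 of 11658 higher and 2814 lower. Long noncoding RNAs leaned to BT20, with 552 of 2767 higher and 853 lower. The split by direction depended on scaling, with 3290 genes higher and 4790 lower without further normalization. It was not recomputed by gene type under other scalings.

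**Figure D1:**
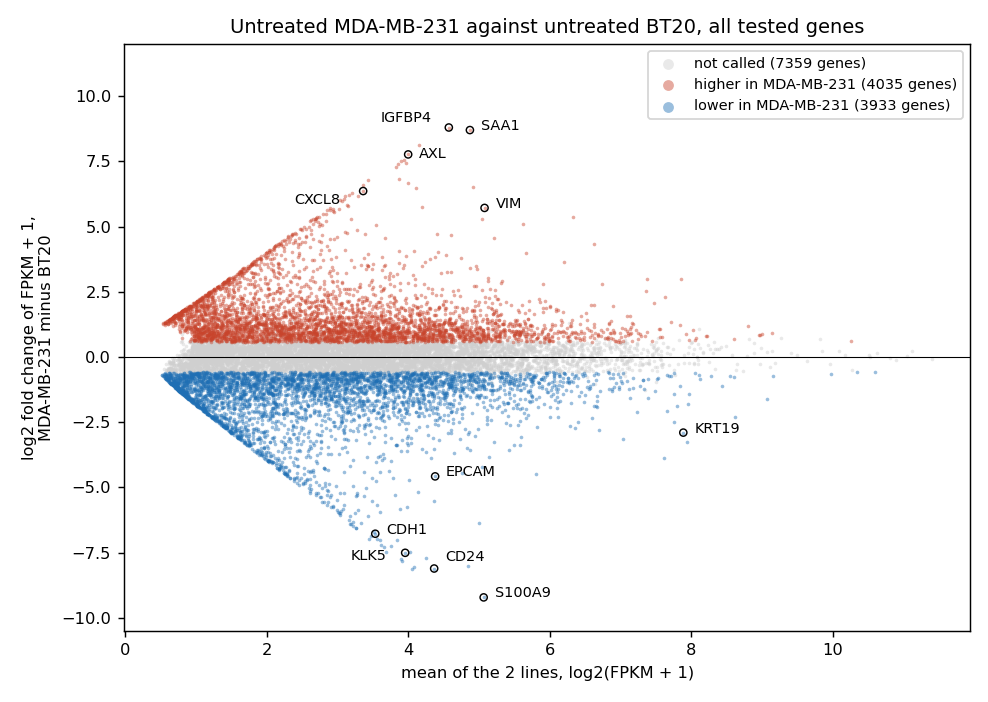
Log2 fold change (MDA-MB-231 minus BT20, y axis) against the mean log2(FPKM + 1) of the lines (x axis) for each of the 15327 tested genes, red where called higher, blue where called lower and grey where not called. The 4035 and 3933 called genes lie above and below the grey band, with IGFBP4 and SAA1 at the top and S100A9 at the bottom, and the straight outer edges are genes that were at or near 0 in the other line.

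The labels of the lines were read against their defining markers. The simple keratins KRT8, KRT18, KRT19 and KRT7 were present in both lines: KRT8 was 380.4 to 416 FPKM in BT20 and 109 to 147 in MDA-MB-231, and KRT7 was 289 to 330.0 and 155 to 198. EPCAM, an epithelial adhesion protein, was 124, 95.2 and 90.9 FPKM in BT20 and 3.42, 2.98 and 3.06 in MDA-MB-231. Of the mesenchymal markers, AXL, VIM, ZEB1 and FN1 were higher in MDA-MB-231, with FN1 (fibronectin) at 0.992 to 1.11 FPKM in BT20 and 6.11 to 10.3 in MDA-MB-231, although MDA-MB-468 had 22.5 to 26.9. CDH2 (N-cadherin) was under 1 FPKM in every library, with 0 to 0.0266 in BT20 and 0.134 to 0.274 in MDA-MB-231. The mesenchymal label of MDA-MB-231 therefore rests here on vimentin, AXL and ZEB1. Fibronectin set it apart from BT20 but not from the epithelial MDA-MB-468, and N-cadherin was hardly read.

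For the triple-negative label, PGR (progesterone receptor) was 0 in all 6 libraries. ESR1 (estrogen receptor alpha) was 1.69, 1.87 and 1.77 FPKM in BT20 and 0 to 0.00382 in MDA-MB-231, so BT20 held a low level of its RNA (adjusted p = 4e-05). ERBB2 (HER2) was 30.0, 31.7 and 31.5 FPKM in BT20 and 14.002, 14.3 and 14.8 in MDA-MB-231. Of 7 tested hormone receptor and luminal genes, 6 were lower in MDA-MB-231 and 1 higher, against 25.7% and 26.3% of all genes. The lower ones included ERBB3, PRLR (prolactin receptor), MYB and XBP1, and the higher one was CA12 (0.0156 to 0.0408 against 1.10 to 1.43 FPKM).

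Of 12 blood cell markers only CD14 passed the filter, with 0.0373 to 0.166 FPKM in BT20 and 1.48 to 2.68 in MDA-MB-231, and the sum of all 12 was 0.58 to 0.863 FPKM in BT20 and 1.97 to 3.63 in MDA-MB-231. PTPRC (CD45) was 0.0311 to 0.0357 FPKM in BT20 and 0 in all MDA-MB-231 libraries. Of 12 vessel and stroma markers, 2 passed the filter. CDH5 (VE-cadherin) was 12.9, 23.6 and 23.0 FPKM in BT20 against 0 to 0.00870 in MDA-MB-231 and 0.182 to 0.449 in MDA-MB-468, while PDGFRB, a growth factor receptor of stromal cells, was 0.00863 to 0.0382 in BT20 and 3.15, 4.14 and 4.65 in MDA-MB-231. Of the other endothelial markers, VWF was 0.838 to 1.15 FPKM in BT20 and 0.00851 to 0.0204 in MDA-MB-231, PECAM1 was 0.342 to 0.719 and 0.143 to 0.160, TIE1 0 to 0.00814 and 0.0132 to 0.0943, and KDR 0 and 0.0976 to 0.499. The sum of all 12 was 14.6 to 25.2 FPKM in BT20 and 3.77 to 5.71 in MDA-MB-231, most of it CDH5 and PDGFRB, and the part of such cells in any result was not tested. In a bulk library, fewer cells with a transcript and less of it per cell cannot be told apart.

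The genes with the largest positive log2 fold changes included IGFBP4, SAA1, G0S2, AXL, SPANXB1, GSTP1, PLAU, ANKRD1, CCN2, CAV1, CSF2, S100A4, TGM2 and CXCL8. IGFBP4, a binding protein of insulin-like growth factors, led with 0.227, 0.0495 and 0.0279 FPKM in BT20 and 646, 439 and 455 in MDA-MB-231 (log2 fold change 8.80 ± 0.087, SE, adjusted p = 2.2e-07). SAA1, an acute-phase protein, was 0.704, 0.538 and 0.173 FPKM against 849, 447 and 445. G0S2, an inhibitor of the lipase ATGL, was 0.0815, 0 and 0 FPKM against 281, 321 and 324, and TGM2 (transglutaminase 2) was 1.01, 1.00 and 0.991 against 124, 152 and 163. In each of these the lowest MDA-MB-231 library was more than 100 FPKM above the highest BT20 library. G0S2 and TGM2 were also low in MDA-MB-468, at 0 to 0.134 and 0.0644 to 0.0886 FPKM, whereas IGFBP4 and SAA1 were 72.6 to 86.0 and 76.2 to 82.2 there. SAA1 and SAA2 are close copies that may share reads, and SPANXB1 belongs to a family of near-identical X-linked copies, so the copy is uncertain.

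The 15 largest negative changes were S100A9, OLFM4, CD24, IGFBP5, AKR1B10, KRT4, SLPI, KLK5, VGLL1, CES1, KLK6, S100P, NCOR1P4, CDH1 and DHRS2. S100A9, a subunit of calprotectin, was 1035, 883 and 893 FPKM in BT20 and 0.309, 0.185 and 0.0920 in MDA-MB-231 (log2 fold change -9.22 ± 0.11, SE, adjusted p = 3.3e-07). OLFM4 (olfactomedin 4) was 259, 266 and 283 FPKM against 0, 0 and 0.0371. IGFBP5, a relative of IGFBP4, was 218, 291 and 325 FPKM against 0.0410, 0.0164 and 0, so IGFBP4 and IGFBP5 differed in opposite directions. Other members of this family are not reported here. VGLL1, a cofactor of TEAD transcription factors, was 175, 153 and 165 FPKM in BT20, 0 in all MDA-MB-231 libraries and 91.4 to 108 in MDA-MB-468. Most of these genes were also read in MDA-MB-468, but AKR1B10, an aldo-keto reductase, DHRS2, a dehydrogenase, and NCOR1P4 were high in BT20 alone among the untreated lines: AKR1B10 was 449.7 to 531 FPKM in BT20 and 1.11 to 1.42 in MDA-MB-468, DHRS2 was 111 to 130.1 and 0.0723 to 0.192, and NCOR1P4 was 99.9 to 129 and 0. NCOR1P4 is a processed copy of NCOR1 and its reads could belong to the parent gene. All genes of both groups kept their calls on leaving out any of the 6 libraries.

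Epithelial genes were lower in MDA-MB-231 as groups, set against 25.7% lower and 26.3% higher among all tested genes. Of 27 tested genes of adhesion and junctions, 22 were lower, 15 of them by over 4-fold, and the median log2 fold change was -2.28 against 0.04 over all tested genes. CDH1 (E-cadherin) was 119.7, 125 and 135 FPKM in BT20, 0.0290, 0.0607 and 0.0605 in MDA-MB-231 and 19.0002 to 24.3 in MDA-MB-468 (log2 fold change -6.78 ± 0.12, SE, adjusted p = 4.1e-07). CDH3 (P-cadherin) was 90.5, 96.6 and 100.2 FPKM in BT20 and 0.0582, 0.0348 and 0.0434 in MDA-MB-231. Both cadherins were therefore strongly transcribed in BT20 and nearly silent in MDA-MB-231, with no overlap. TJP3 (a tight junction scaffold), MARVELD3 (a tight junction membrane protein) and CRB3 (an apical polarity protein) fell by 4.88, 4.70 and 3.82 on the log2 scale. EPCAM was 32.7-fold lower by the ratio of mean FPKM and, unlike CDH1, kept about 3 FPKM. A desmosomal cadherin, DSG2, was called in the opposite direction, 8.70, 12.8 and 12.5 FPKM against 11.5, 32.9 and 30.6, but the groups overlapped and the call was lost without any of the libraries other than MDA-MB-231 replicate 1 (adjusted p 0.089 to 0.15) and without further normalization (0.078).

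All 16 epithelial protease, inhibitor and trafficking genes were lower, against 25.7% of all genes. By over 4-fold, 11 were lower, and the median log2 fold change was -3.79. RAB25, a GTPase of apical recycling endosomes, was 92.1, 80.7 and 79.3 FPKM in BT20 against 0.0523, 0 and 0 in MDA-MB-231. The membrane-anchored serine proteases ST14 (matriptase) and PRSS8 (prostasin) and their inhibitor SPINT1 moved together: ST14 was 88.5 to 90.9 FPKM in BT20 and 0.397 to 0.773 in MDA-MB-231, PRSS8 51.5 to 66.3 and 0 to 0.0532, and SPINT1 107 to 129 and 0.823 to 0.938. BSPRY and TMC4 fell by 5.49 and 4.85 on the log2 scale.

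ZEB and SNAI proteins bind the E-box CACCTG, searched on both strands. The 250 bases before the start of RAB25 are shown as an example from the list that was lower throughout (RefSeq, GRCh38.p14, chr1:156060910-156061159, plus strand), with the match in capitals, 41 bases before the start.
RAB25: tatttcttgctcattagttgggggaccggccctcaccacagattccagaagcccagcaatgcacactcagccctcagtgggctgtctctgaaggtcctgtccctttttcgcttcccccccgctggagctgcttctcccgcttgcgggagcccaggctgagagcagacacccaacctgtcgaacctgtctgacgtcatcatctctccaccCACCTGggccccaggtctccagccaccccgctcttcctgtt
Of the 63 members of the 3 epithelial lists, 37 had a promoter in the table used, and 16 of these held the motif on either strand (43.2%), against 17.5% of all 27305 promoters. Of the 16, DSG2 was called higher, DSC2, DSP and TJP1 were not called, and GRHL3 was under the filter. Those promoters include many of noncoding genes and differ in base composition, and a match in letters is not a bound site.

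The transcription and splicing factors of the epithelial state followed. Of 16 tested, 14 were lower and none higher, against 25.7% and 26.3% of all genes, with a median of -3.17. FOXA1, a pioneer factor of luminal cells, was 41.0, 41.2 and 39.6 FPKM in BT20 and 0, 0.0120 and 0.0358 in MDA-MB-231. ESRP1, the splicing regulator of epithelial isoforms, was 30.5, 33.2 and 31.7 FPKM against 0.0544, 0.0109 and 0.0324, and GRHL2, a grainyhead factor that opens epithelial enhancers, was 17.3, 22.6 and 22.7 against 0, 0.00874 and 0.00871. These 3 were at or within 0.06 FPKM of 0 in all MDA-MB-231 libraries, and each was at 14 FPKM or more in MDA-MB-468. ELF3 and SPDEF fell by 4.94 and 4.41 on the log2 scale. The mucin and apical surface list had 10 of 11 tested members lower, against 25.7% of all genes, with a median of -4.16. In it, CD24 was 339 to 423 FPKM against 0.102 to 0.188, SLPI, a secreted protease inhibitor, 259 to 318 against 0.0888 to 0.445, and MUC1 29.6 to 35.9 against 0.291 to 0.600. CEACAM6, an adhesion glycoprotein, was 59.9, 106 and 109 FPKM in BT20, 0 in all MDA-MB-231 libraries and only 1.11 to 2.25 in MDA-MB-468.

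**Figure D2:**
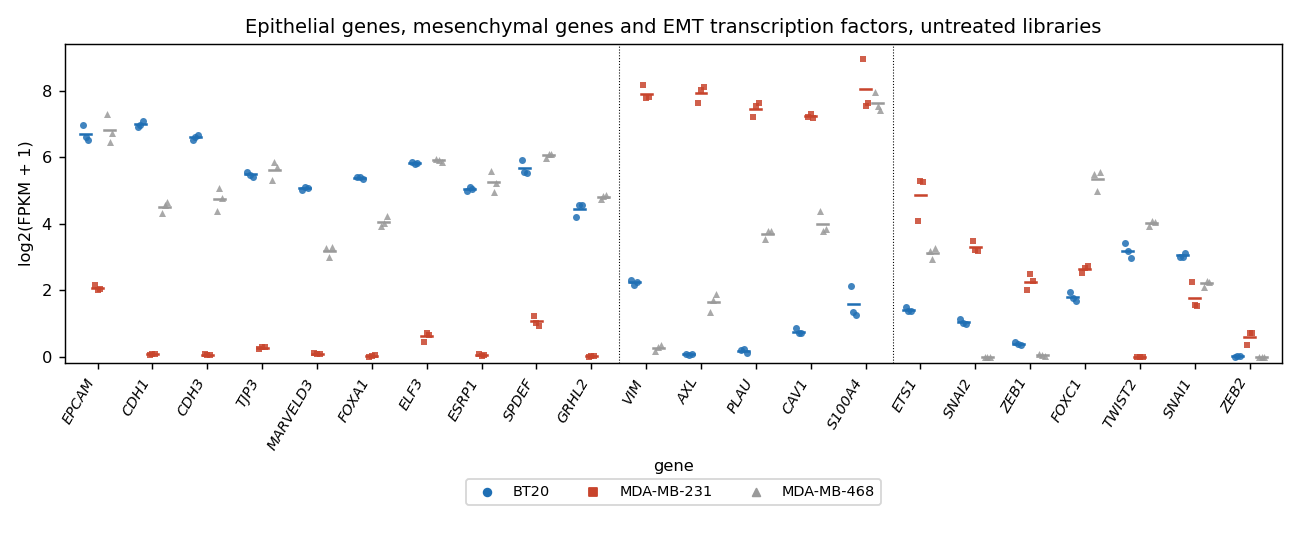
Log2(FPKM + 1) in each untreated library (y axis) for epithelial genes (left), mesenchymal genes (middle) and EMT transcription factors (right), with BT20 as blue circles, MDA-MB-231 as red squares, MDA-MB-468 as grey triangles and a bar at each mean of 3 libraries. The epithelial genes sit near 0 in MDA-MB-231 except EPCAM and SPDEF, the mesenchymal genes sit near the top in MDA-MB-231, and TWIST2 and SNAI1 are higher in BT20 than in MDA-MB-231.

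The EMT transcription factors did not move as a block. Of 14 listed, 8 could be tested, with 5 higher and 2 lower in MDA-MB-231, against 26.3% and 25.7% of all genes. ZEB1 was 0.347, 0.290 and 0.285 FPKM in BT20 and 3.00, 4.55 and 3.84 in MDA-MB-231 (log2 fold change 2.17 ± 0.10, SE, adjusted p = 7.7e-06). SNAI2 (Slug) was 1.17, 1.03 and 0.975 FPKM against 10.2, 8.19 and 8.03, and 0 in MDA-MB-468. ETS1 was 1.84, 1.57 and 1.58 FPKM against 16.02, 37.5 and 36.7, and FOXC1 2.85, 2.43 and 2.18 against 4.70, 5.37 and 5.60. For these 4 every MDA-MB-231 library was above every BT20 library, but MDA-MB-468 was higher still for FOXC1 (30.9 to 45.8 FPKM).

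TWIST2 and SNAI1 went the other way. TWIST2 was 9.59, 8.09 and 6.82 FPKM in BT20, 0 in all MDA-MB-231 libraries and 14.2 to 15.9 in MDA-MB-468, so it was read in both epithelial lines. SNAI1 (Snail) was 6.99, 6.98 and 7.76 FPKM in BT20 and 3.73, 1.96 and 1.89 in MDA-MB-231 (log2 fold change -1.02 ± 0.23, SE, adjusted p = 0.0079). SNAI3 was 1.27 to 1.76 FPKM against 0.122 to 0.254 and was not called (log2 fold change -0.42), but it was called lower without further normalization, with median scaling, with pseudocounts of 0.1 and 0.5, without the filter and with limma-voom (log2 fold changes -2.64 to -0.60). The untested factors were under 1 FPKM in every library of both lines. ZEB2 was 0.00287, 0.00439 and 0.00495 FPKM in BT20 against 0.281, 0.647 and 0.634 in MDA-MB-231, TCF4 0.116 to 0.120 against 0 to 0.00376, FOXC2 0.245 to 0.591 against 0, and GSC 0.0487 to 0.395 against 0. TWIST1 was 0 in all 6 libraries, and PRRX1 was 0 in all but MDA-MB-231 library 3, with 0.0192 FPKM.

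Of 25 tested mesenchymal cytoskeleton, adhesion and invasion genes, 23 were higher in MDA-MB-231 and none lower, against 26.3% and 25.7% of all genes. By over 4-fold, 18 were higher, and the median log2 fold change was 3.17. AXL, a receptor tyrosine kinase of the TAM family, was 0.0556, 0.0425 and 0.0479 FPKM in BT20 and 197, 258 and 272 in MDA-MB-231 (log2 fold change 7.77 ± 0.25, SE, adjusted p = 2e-06). PLAU, the secreted protease urokinase, was 0.145, 0.167 and 0.0835 FPKM against 146, 186 and 198, so it was abundant in MDA-MB-231 and nearly absent from BT20. CAV1 (caveolin 1) was 0.813, 0.635 and 0.621 FPKM against 147, 155 and 144. VIM (vimentin) was 65.0-fold higher by the ratio of mean FPKM, and lower still in MDA-MB-468 (0.132 to 0.272 FPKM) than in BT20 (3.47 to 3.90). S100A4, a calcium-binding protein of motile cells, was 3.32, 1.56 and 1.37 FPKM against 494, 185 and 196, with library 1 above 2 and 3 in both lines, and MDA-MB-468 had 169 to 246.

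**Figure D3:**
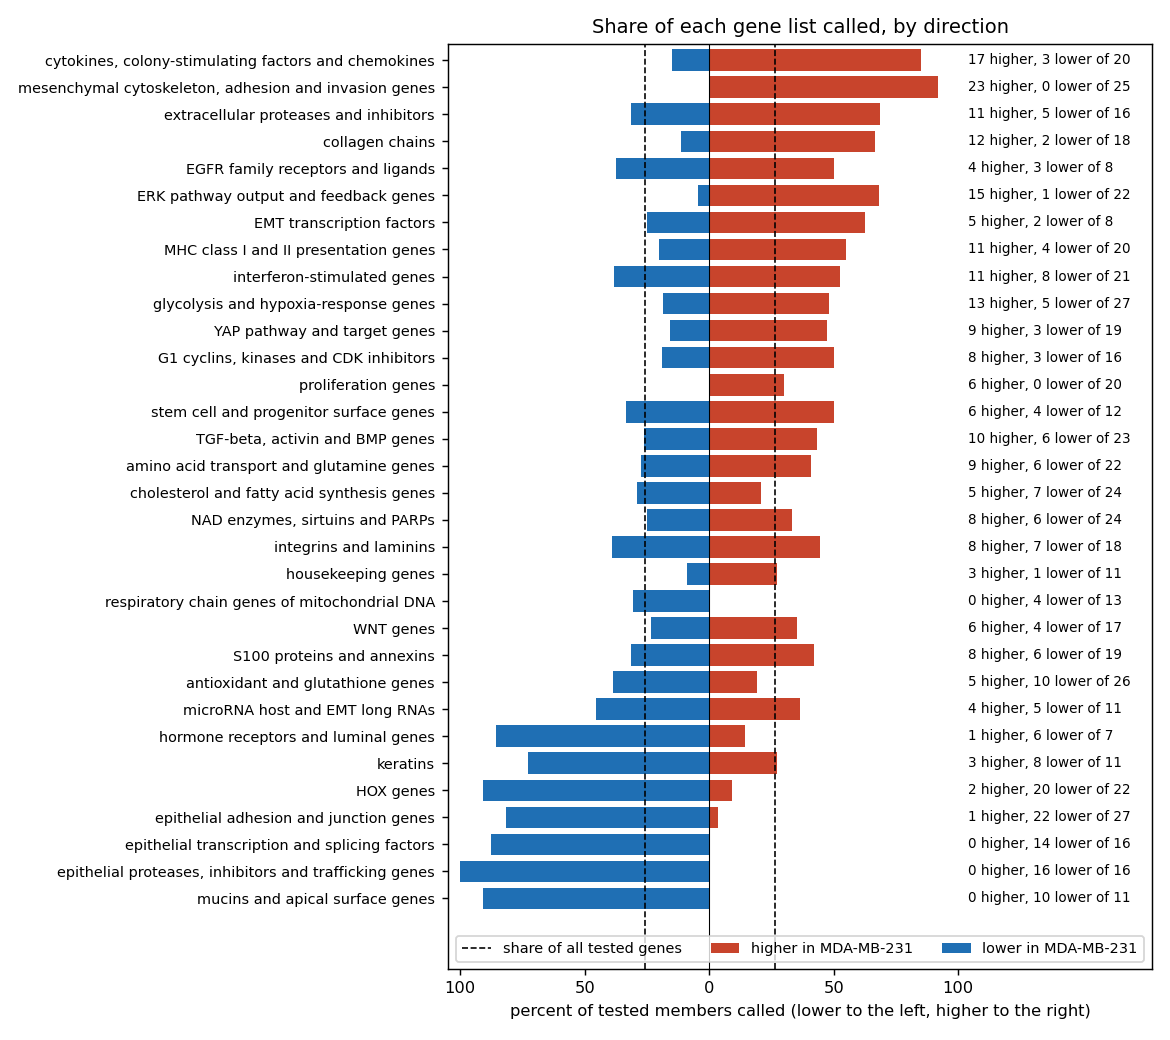
Share of the tested members of each gene list (y axis) that were called higher (red, right) or lower (blue, left) in MDA-MB-231, in percent (x axis), ordered by median log2 fold change, with dashed lines at the shares of all tested genes, 26.3% higher and 25.7% lower. The epithelial, mucin and HOX lists at the bottom lie almost wholly to the left, and the mesenchymal list lies wholly to the right and the cytokine list mostly so, with 3 of 20 to the left.

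Matrix genes and their proteases were mostly higher in MDA-MB-231. Of 18 tested collagen chains, 12 were higher and 2 lower, against 26.3% and 25.7% of all genes. The count of lower chains was 4 without further normalization, with median scaling, with a pseudocount of 0.1 or with limma-voom. COL13A1, a transmembrane collagen, was 0.0144 to 0.0623 FPKM in BT20 and 15.4 to 21.9 in MDA-MB-231, and the basement membrane chains COL4A1 and COL4A2, which are transcribed from a shared promoter, were 0.200 to 0.354 against 4.20 to 7.59 and 0.652 to 0.779 against 11.6 to 16.7. COL7A1 (3.40 ± 0.25), COL8A1 (3.29 ± 0.18) and COL5A1 (2.15 ± 0.15, log2 fold change ± SE) were higher too. COL9A3 (5.50 to 7.45 against 0.0547 to 0.1095 FPKM) and COL18A1 (35.8 to 43.0 against 19.7 to 23.8) were lower. The fibrillar chains COL1A2 and COL3A1 of stromal fibroblasts stayed under 0.5 FPKM in every library.

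Extracellular proteases and inhibitors were split, with 11 of 16 tested higher and 5 lower, against 26.3% and 25.7% of all genes. MMP14, the membrane-type collagenase, was 0.192, 0.208 and 0.166 FPKM in BT20 and 69.4, 82.8 and 85.4 in MDA-MB-231, and MMP1 was 0 in all BT20 libraries and 14.4, 21.6 and 20.8 in MDA-MB-231. TIMP3, an inhibitor of metalloproteases, was higher as well (0.0237 to 0.0465 against 27.3 to 32.5 FPKM), as were ADAM8, ADAMTS15 and ADAMTS12 (log2 fold changes 4.52, 4.02 and 3.75). In the other direction stood the kallikreins, secreted serine proteases of epithelia. KLK5 was 254, 201 and 213 FPKM in BT20 and 0.107, 0.0960 and 0.0319 in MDA-MB-231, KLK6 was 201, 117 and 122 against 0, 0 and 0.0267, and KLK8 was 8.60 to 11.2 against 0. MMP15 (45.1 to 50.7 against 5.30 to 8.36 FPKM) and ADAM9 (46.7 to 53.0 against 22.9 to 34.2) were the other 2 that were lower, and ADAM9 passed the fold threshold only with MDA-MB-231 replicate 1 (-0.57 without it).

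Integrins and laminins were split by member, with 8 of 18 tested higher and 7 lower, against 26.3% and 25.7% of all genes. The alpha chains ITGA5 (fibronectin receptor; 7.05 to 7.59 against 28.2 to 41.3 FPKM), ITGA2 (1.73 to 2.88 against 5.63 to 14.1), ITGA3 (26.2 to 33.1 against 82.1 to 154) and ITGA6 (17.5 to 20.1 against 36.6 to 61.6) were higher in MDA-MB-231, as was the laminin chain LAMB3. ITGB6, the epithelial partner of integrin alpha v, was 52.8, 52.8 and 47.9 FPKM in BT20 and 0.0917, 0.0549 and 0.0456 in MDA-MB-231. ITGB4, the hemidesmosome chain that pairs with alpha 6, was lower (29.6 to 36.0 against 4.46 to 6.55 FPKM), as were ITGB5, ITGAV, ITGB8 and LAMA5. LAMB2 was called lower, but not without BT20 replicate 3 (log2 fold change -0.56) or MDA-MB-231 replicate 1 (-0.50), with median scaling (-0.44) or with limma-voom (-0.49).

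Cytokines, colony-stimulating factors and chemokines held the largest median of the lists with at least 7 tested members, 4.33 on the log2 scale. Of 20 tested, 17 were higher in MDA-MB-231 and 3 lower, against 26.3% and 25.7% of all genes. CSF2 (GM-CSF) was 0 in all BT20 libraries and 137, 87.2 and 90.4 FPKM in MDA-MB-231. IL6 was likewise 0 in BT20 and 65.4, 47.3 and 48.4 in MDA-MB-231. CXCL8 (IL-8) was 0.159, 0.0975 and 0.220 FPKM against 86.5, 95.1 and 89.0, CXCL1 was 0.0524, 0 and 0 against 113, 67.1 and 68.4, and CSF1 (M-CSF) was 0.0545, 0.0208 and 0.0352 against 89.1, 67.7 and 71.1. In each of these 5 genes all BT20 libraries were under 0.3 FPKM and all MDA-MB-231 libraries above 45. MDA-MB-468 shared CXCL8 (18.3 to 50.6 FPKM) and CSF1 (26.0 to 31.0) with MDA-MB-231, but not CSF2 (0 to 0.108), CXCL1 (0) or IL6 (0.783 to 1.12). IL1A was 0, 0.0541 and 0.0610 FPKM against 7.89, 52.3 and 46.1, so library 1 of MDA-MB-231 was far below the other 2, yet above BT20.

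The other 3 tested members of the list were higher in BT20. CXCL16 was 31.1, 33.3 and 31.8 FPKM in BT20 and 2.09, 1.14 and 0.830 in MDA-MB-231, and CCL28, a mucosal epithelial chemokine, was 4.81 to 6.07 against 1.56 to 1.74. IL1RN, the interleukin 1 receptor antagonist, was 1.74 to 3.42 FPKM against 0.276 to 0.679. The call of IL1RN was lost without BT20 replicate 1 or 2 or MDA-MB-231 replicate 2 or 3 (adjusted p 0.045 to 0.10, log2 fold change -0.49 to -0.82).

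AP-1, the dimer of FOS and JUN proteins, binds TGANTCA (the same letters on both strands). It is shown in the promoter of CXCL8 (250 bases before the start, RefSeq, GRCh38.p14, chr4:73740319-73740568, plus strand), with the match in capitals, 137 bases before the start.
CXCL8: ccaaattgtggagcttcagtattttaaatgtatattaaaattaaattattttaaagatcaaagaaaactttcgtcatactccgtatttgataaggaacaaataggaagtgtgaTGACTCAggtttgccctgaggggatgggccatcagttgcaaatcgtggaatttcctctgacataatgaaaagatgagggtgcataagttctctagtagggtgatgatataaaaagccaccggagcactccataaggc
Of 25 list members, 17 had a promoter in the table, and 4 of them held the motif (CXCL8, IL11, IL1A and IL1RN; 23.5%), against 6.60% of all 27305 promoters. One of the 4, IL1RN, was called in the opposite direction. A match in letters is not a bound site, and AP-1 binding was not measured.

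Of 22 tested genes that report on the ERK pathway, 15 were higher in MDA-MB-231 and 1 lower, against 26.3% and 25.7% of all genes. FOSL1 (FRA-1) was 8.47, 6.60 and 6.82 FPKM in BT20 and 269, 303 and 305 in MDA-MB-231 (log2 fold change 5.10 ± 0.22, SE, adjusted p = 5.8e-06). The feedback inhibitors were high as well. DUSP6, a phosphatase of ERK, was 0.703, 0.849 and 0.925 FPKM against 25.4, 38.7 and 36.5, DUSP7 was 1.30 to 1.54 against 13.3 to 16.1, and SPRY4, an inhibitor of receptor tyrosine kinase signals, was 1.00 to 1.64 against 9.37 to 17.0. EPHA2 (11.1 to 16.5 against 77.1 to 122 FPKM) and PHLDA1 (14.9 to 16.6 against 74.9 to 102) followed. All 6 were under 30 FPKM in MDA-MB-468. The exception was EGR1, an immediate early factor, at 15.4, 14.6 and 13.9 FPKM in BT20 and 1.38, 2.16 and 2.23 in MDA-MB-231.

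In the EGFR family, ligands and receptors differed in opposite directions. The 4 ligands called were all higher in MDA-MB-231. HBEGF was 0.358, 0.183 and 0.226 FPKM against 57.1, 64.1 and 64.3, AREG (amphiregulin) was 0.913, 0.465 and 0.375 against 61.1, 46.4 and 46.0, EREG (epiregulin) was 0.0287 to 0.0646 against 7.40 to 9.13, and NRG1 was 0 in all BT20 libraries and 2.65 to 3.90 in MDA-MB-231. The 3 receptors called were lower. ERBB3 was 8.64, 11.8 and 12.4 FPKM against 0.0978, 0.316 and 0.332, and ERBB2 was 2.16-fold lower by the ratio of means. EGFR was 43.1, 59.9 and 63.8 FPKM in BT20 and 11.7, 28.4 and 26.9 in MDA-MB-231, without overlap. Its adjusted p of 0.015 rose to 0.054 without BT20 replicate 2 and 0.055 without BT20 replicate 3, and MDA-MB-468 had 164 to 174 FPKM.

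YAP is the transcriptional effector of the Hippo pathway, which binds DNA through TEAD factors and is restrained by NF2 (merlin). Of 19 genes of the pathway, 9 were higher in MDA-MB-231, 7 by over 4-fold, and 3 lower. Of all genes, 26.3% were higher and 25.7% lower. The target ANKRD1 was 0.289, 0.552 and 0.498 FPKM in BT20 and 136, 157 and 151 in MDA-MB-231, and CCN2 (CTGF) was 0.0305, 0 and 0.0263 against 90.6, 125 and 124. CCN1 (CYR61) was 19.3, 21.1 and 20.0 FPKM against 409.9, 474 and 493, F3 (tissue factor) 3.75 to 4.16 against 115 to 123, and NT5E (CD73) 6.58 to 10.3 against 66.5 to 119.7. The lines did not overlap in any of these, and CCN2 and NT5E were intermediate in MDA-MB-468 (19.6 to 35.2 and 24.8 to 38.1 FPKM).

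The effectors differed by member, and TEAD2 was called lower (values below). WWTR1 was not called but was lower in every MDA-MB-231 library than in any BT20 library. YAP1 was 29.3, 31.9 and 33.8 FPKM in BT20 and 25.7, 43.8 and 44.1 in MDA-MB-231 (log2 fold change 0.23 ± 0.24, SE, adjusted p = 0.43), WWTR1 (TAZ) was 11.3 to 12.03 against 7.68 to 9.27, and TEAD1 was 14.1 to 21.4 against 11.7 to 23.8, none of them called. These 3 were chosen after their values were seen. NF2 was lower, with 14.4, 9.45 and 10.4 FPKM in BT20 and 1.35, 2.17 and 2.14 in MDA-MB-231 (log2 fold change -1.88 ± 0.18, SE, adjusted p = 0.00019), and so were TEAD2 (26.7 to 36.3 against 13.5 to 17.2) and TRIP6 (64.0 to 76.3 against 37.5 to 50.9), which fell short of the fold threshold with median scaling (-0.57).

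**Figure D4:**
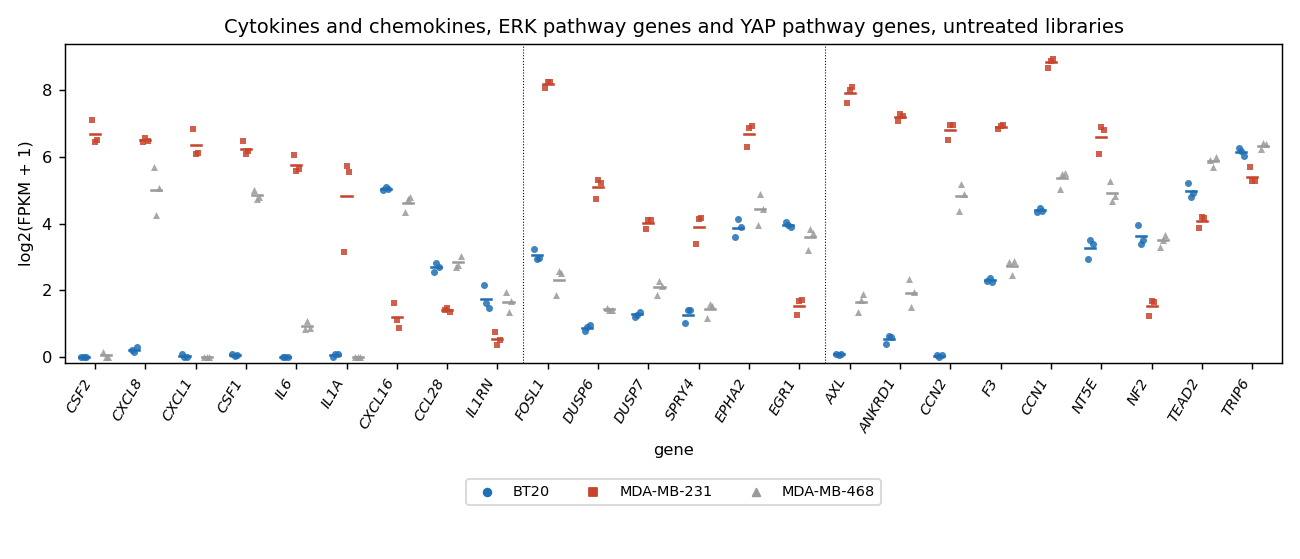
Log2(FPKM + 1) in each untreated library (y axis) for cytokine and chemokine genes (left), ERK pathway genes (middle) and YAP pathway genes (right), with BT20 as blue circles, MDA-MB-231 as red squares, MDA-MB-468 as grey triangles and a bar at each mean of 3 libraries. CSF2, CXCL8, CXCL1, CSF1 and IL6 lie near 0 in BT20 and above 45 FPKM in MDA-MB-231, IL1A spreads widely among the MDA-MB-231 libraries, and NF2 and EGR1 lie lower in MDA-MB-231.

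TEAD factors bind GGAATG, searched on both strands. The promoters of the 2 targets with the largest change that were in the table are shown with their matches in capitals (250 bases before the start, RefSeq, GRCh38.p14): CCN2 at chr6:131951373-131951622, minus strand, with 3 matches, the farthest 169 and the nearest 95 bases before the start, and ANKRD1 at chr10:90921088-90921337, minus strand, with matches 220 and 128 bases before it.
CCN2: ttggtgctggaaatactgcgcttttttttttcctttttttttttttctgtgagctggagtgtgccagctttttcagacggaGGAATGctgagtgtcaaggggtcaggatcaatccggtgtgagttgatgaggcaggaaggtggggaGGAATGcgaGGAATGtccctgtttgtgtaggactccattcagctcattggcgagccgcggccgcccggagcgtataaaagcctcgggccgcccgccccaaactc
ANKRD1: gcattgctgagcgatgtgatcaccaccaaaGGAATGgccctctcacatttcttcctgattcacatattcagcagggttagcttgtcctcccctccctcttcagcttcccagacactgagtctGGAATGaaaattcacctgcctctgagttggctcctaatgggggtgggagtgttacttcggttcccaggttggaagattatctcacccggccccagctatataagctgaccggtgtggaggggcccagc
Of 16 list members with a promoter in the table, 5 held the motif (31.2%), namely these 2, PTPN14, TRIP6 and YAP1, against 11.9% of all promoters. Of the 5, TRIP6 was called lower and YAP1 was not called. The list was made of YAP pathway and target genes, so this share cannot speak to the difference between the lines. All promoters include many of noncoding genes and differ in base composition, and a match in letters is not a bound site. TEAD binding was not measured.

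Of 23 tested TGF-beta, activin and BMP genes, 10 were higher and 6 lower, against 26.3% and 25.7% of all genes. Higher were TGFB2 (0.00902 to 0.0407 against 11.3 to 20.1 FPKM), BMP4 (0.557 to 0.715 against 22.9 to 37.6), INHBA, the activin A subunit (0.973 to 1.34 against 7.40 to 13.3), its antagonist FST (follistatin; 0 against 16.4 to 26.0) and the inhibitory SMAD7 (1.68 to 1.97 against 6.64 to 7.25). Lower were INHBB, the activin B subunit, at 75.6, 82.0 and 74.8 FPKM in BT20 and 0, 0.0990 and 0.0329 in MDA-MB-231, BAMBI, a decoy receptor (126 to 163 against 6.14 to 7.73), BMP7 (7.49 to 11.03 against 0) and the latent TGF-beta binding proteins LTBP1, LTBP2 and LTBP3 (log2 fold changes -2.04, -0.90 and -0.96).

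Among WNT genes, 6 of 17 tested were higher and 4 lower, close to the shares of all genes, and 7 were lower with limma-voom. DKK1, a secreted WNT inhibitor, was 2.03, 1.67 and 1.72 FPKM in BT20 and 66.3, 53.0 and 51.9 in MDA-MB-231, ROR1, a WNT5A receptor, was 0.962 to 1.10 against 7.88 to 14.7, and WNT5B was 0.202 to 0.392 against 6.88 to 11.03. WNT5A and WNT7B were the reverse, at 13.02 to 15.3 and 17.6 to 19.6 FPKM in BT20 and 1.70 to 2.02 and 1.21 to 1.53 in MDA-MB-231. In the stem cell and progenitor list, 6 of 12 tested were higher and 4 lower, against 26.3% and 25.7% of all genes. CD44, a hyaluronan receptor, was 39.7 to 43.5 FPKM against 96.0 to 126, while CD24 was nearly absent from MDA-MB-231, and PROCR was 4.70 to 6.39 against 26.1 to 37.5. ALDH1A3, an aldehyde dehydrogenase that makes retinoic acid, was lower (52.8 to 70.9 against 3.58 to 7.80 FPKM), as were NOTCH3 (18.7 to 26.6 against 0.216 to 0.510) and the ligand JAG2, while the ligand JAG1 was higher (0.944 to 1.47 against 2.55 to 4.85).

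Of 11 tested keratins, 8 were lower in MDA-MB-231 and 3 higher, against 25.7% and 26.3% of all genes. The basal keratin KRT5 was 61.2, 68.0 and 68.1 FPKM in BT20 and 0.0214, 0 and 0.0383 in MDA-MB-231, KRT4 was 189 to 245 against 0 to 0.0184, and KRT16, KRT23 and KRT15 fell by 3.34, 3.73 and 2.18 on the log2 scale. The simple keratins fell less, with KRT19 at 6.52-fold and KRT8 at 3.26-fold lower by the ratio of means, so that KRT8 was still abundant in MDA-MB-231 while KRT5 was not. The hair keratins KRT81 (0.0283 to 0.0370 against 31.1 to 54.9 FPKM) and KRT86 were higher, though their near-identical sequences leave the split of reads between them uncertain, and KRT80 was 37.1 to 42.1 against 65.8 to 95.9.

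S100 proteins and annexins were split by member, with 8 of 19 tested higher and 6 lower, against 26.3% and 25.7% of all genes. S100A3 was 0 in all BT20 libraries and 68.4, 23.3 and 24.5 FPKM in MDA-MB-231, S100A2 was 0.741 to 1.57 against 40.2 to 110.5, and S100A6 was 60.5 to 111 against 490.4 to 1014. In the opposite direction, S100A8, the partner of S100A9, was 73.4, 50.7 and 60.6 FPKM against 0, 0 and 0.0592, S100P was 137 to 228 against 0 to 0.375, and S100A14 was 41.6 to 80.8 against 0.124 to 0.208. The calprotectin pair was thus carried by BT20 and by MDA-MB-468 (687 to 932 FPKM of S100A9). ANXA1 and ANXA6 were higher in MDA-MB-231 (4.08 to 4.89 against 74.3 to 91.9 and 6.01 to 6.52 against 83.1 to 106 FPKM) and ANXA9 was lower (50.9 to 62.8 against 1.996 to 2.41).

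HOX genes are the clustered transcription factors that keep positional identity. Of 22 tested, 20 were lower in MDA-MB-231 and 2 higher, against 25.7% and 26.3% of all genes. The median log2 fold change was -1.96. Another 13 of 35 listed were not tested, 12 of them under 1 FPKM in all 6 libraries. HOXC10 was 27.6, 20.9 and 21.1 FPKM in BT20, HOXC13 was 14.9, 12.7 and 11.1 and HOXA5 was 7.80, 7.01 and 6.55, and each was 0 in all MDA-MB-231 libraries. HOXB5 and HOXB6 had at most 0.0433 FPKM there, against 6.94 to 10.3 and 5.92 to 8.15 in BT20, and HOXB7 kept 1.74 to 2.12 of 20.5 to 28.7. Each of HOXC10, HOXC13 and HOXA5 was read in MDA-MB-468 as well (15.6 to 18.5, 13.6 to 14.5 and 2.74 to 4.16 FPKM), and HOXB5 was not (0 to 0.0288). The 2 exceptions were HOXB9, at 1.10, 1.14 and 1.02 FPKM in BT20 and 8.07, 14.98 and 14.9 in MDA-MB-231, and HOXD4, at 1.13 to 2.06 against 2.02 to 3.39 with groups that overlapped by 1 library. All members of the A and C clusters that were tested were lower in MDA-MB-231.

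**Figure D5:**
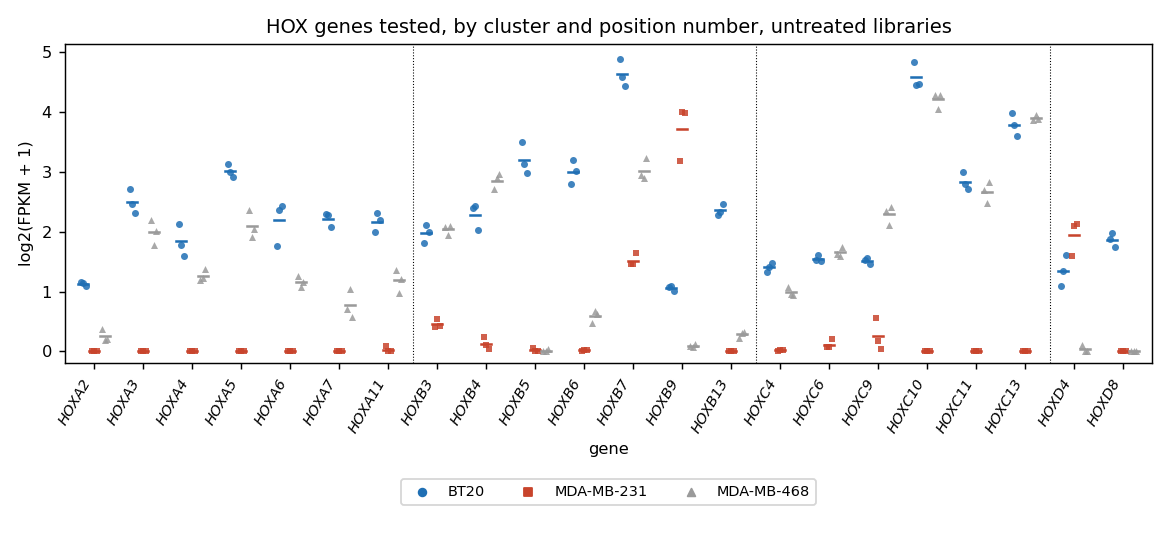
Log2(FPKM + 1) in each untreated library (y axis) for the 22 tested HOX genes, ordered by cluster and position number (x axis, clusters parted by dotted lines), with BT20 as blue circles, MDA-MB-231 as red squares, MDA-MB-468 as grey triangles and a bar at each mean of 3 libraries. In the A and C clusters the MDA-MB-231 libraries lie at or near 0, and HOXB9 and HOXD4 are the 2 genes with a higher mean in MDA-MB-231.

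The microRNA hosts given above belong to a list of microRNA hosts and EMT long RNAs. Of its 11 tested members, those hosts included, 4 were higher and 5 lower, against 26.3% and 25.7% of all genes. H19, an imprinted RNA, was 20.9, 19.6 and 21.2 FPKM in BT20 and 0.0305, 0 and 0.0182 in MDA-MB-231, HOTAIR was 8.86, 8.85 and 8.07 against 0, 0 and 0.0203, and TINCR was 10.9, 8.45 and 8.62 against 0.01996, 0.0239 and 0.0238. HOTAIR lies antisense within the HOXC cluster, and whether reads were counted by strand is not given in the sources used here, so its reads and those of its neighbours may not be told apart. NEAT1 (1.59 to 2.35 against 4.94 to 7.80 FPKM), LINC00472 (0.201 to 0.302 against 1.74 to 2.201) and MIR22HG (3.59 to 4.66 against 6.28 to 7.43) were higher. MALAT1 was 10.8 to 13.4 against 5.79 to 12.7 FPKM and UCA1 was 18.5 to 25.2 against 24.7 to 31.7, neither called. MIR100HG (0.00249 to 0.00430 against 0.734 to 0.978 FPKM), MIR17HG (0.174 to 0.310 against 0.377 to 0.749) and MIR31HG (0.465 to 0.938 against 0) were under the filter, and MIR155HG was 0 in all 6 libraries.

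Interferon-stimulated genes were higher in 11 of 21 tested cases and lower in 8, against 26.3% and 25.7% of all genes. CGAS, the cytosolic DNA sensor, was 0.0513, 0.0262 and 0.0295 FPKM in BT20 and 19.04, 17.1 and 18.1 in MDA-MB-231, while its downstream adaptor STING1 was 9.05, 8.33 and 8.79 against 2.62, 2.60 and 3.09. IFI27, IFI44 and OASL were higher (0.0395 to 0.0516 against 6.75 to 10.98, 0.0350 to 0.121 against 5.46 to 7.07 and 0.140 to 0.365 against 2.81 to 4.26 FPKM), and OAS1 was lower (4.77 to 5.10 against 0.233 to 0.257). ISG15 was 17.2, 14.3 and 11.2 FPKM against 138, 52.4 and 53.3, with library 1 well above the others in MDA-MB-231. The count of lower genes was 4 with median scaling and 5 without BT20 replicate 2 or 3 or MDA-MB-231 replicate 2. Among the 8, IRF7, OAS3 and IFI35 lost their calls in at least 4 of the 6 leave-one-out fits.

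Of 20 antigen presentation genes, 11 were higher and 4 lower, against 26.3% and 25.7% of all genes. CD74, the invariant chain of MHC class II, was 3.76, 2.96 and 2.90 FPKM in BT20 and 121, 96.6 and 97.0 in MDA-MB-231, and HLA-DRB1 was 3.86 to 4.24 against 15.8 to 26.7. TAP2, a peptide transporter subunit, was 3.93 to 4.59 FPKM against 14.1 to 21.1, and CD274 (PD-L1) was 1.04, 0.890 and 0.719 against 4.56, 9.92 and 9.30. HLA genes vary between people, and how well the reads of either line matched the reference was not tested. The subunits of the immunoproteasome were lower in MDA-MB-231: PSMB10 was 32.7 to 37.2 FPKM against 5.71 to 10.1, PSMB8 46.7 to 51.7 against 19.6 to 26.7, and PSMB9 16.2 to 20.0 against 5.80 to 10.8. TAPBP was called lower by a small margin (adjusted p = 0.047) and in only 1 of the 6 leave-one-out fits, that without MDA-MB-231 replicate 1.

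NAM is the substrate of the NAD salvage pathway, so the baseline of NAD genes was read in full. Of 24 tested NAD enzymes, sirtuins and PARPs, 8 were higher and 6 lower, close to the shares of all genes. NNMT, which methylates nicotinamide, was 1.86, 1.85 and 1.58 FPKM in BT20 and 68.4, 25.9 and 28.7 in MDA-MB-231 (log2 fold change 3.96 ± 0.31, SE, adjusted p = 7.1e-05), and AOX1, which oxidises methylnicotinamide, was 0, 0.0202 and 0.0455 against 6.70, 19.2 and 18.95. Both enzymes of this path of nicotinamide disposal were therefore read in MDA-MB-231, while BT20 had a low level of NNMT and hardly any AOX1. MDA-MB-468 had 0 to 0.0292 and 0.0543 to 0.0884 FPKM, in the same order. NAMPT, the enzyme that salvages nicotinamide, was 30.9, 32.2 and 30.7 against 52.4, 73.2 and 65.9 FPKM.

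The enzymes QPRT, NAPRT and NMRK1 of other routes to NAD were lower in MDA-MB-231, and NADSYN1 (NAD synthetase), which acts downstream of the first 2, was higher (2.18 to 2.54 against 3.00 to 3.40 FPKM). QPRT, of the route from tryptophan, was 78.5, 63.4 and 60.9 FPKM in BT20 and 0.0480, 0.0144 and 0.0430 in MDA-MB-231 (log2 fold change -5.84 ± 0.11, SE, adjusted p = 4.5e-07). NAPRT, which uses nicotinic acid, was 56.3, 50.4 and 44.1 FPKM against 21.0, 8.79 and 9.48, and NMRK1, which uses nicotinamide riboside, was 4.01 to 5.58 against 0.764 to 1.67. MDA-MB-468 kept QPRT (52.1 to 77.1 FPKM) and had little NAPRT (0.642 to 1.503). NADK2, the mitochondrial NAD kinase, PARP9 and PARP14 were lower as well (-1.88, -2.28 and -0.66 on the log2 scale), and SIRT1, SIRT6 and NMNAT1 were higher (0.71, 0.90 and 1.15). Without further normalization the number of higher genes was 5 in place of 8, and SIRT1 was not called.

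Of 22 tested amino acid genes, 9 were higher and 6 lower, against 26.3% and 25.7% of all genes. PHGDH, the entry enzyme of serine synthesis, was 117, 95.8 and 103 FPKM in BT20 and 0.834, 2.36 and 2.45 in MDA-MB-231, and PSPH, the last enzyme, was 77.4 to 87.6 against 20.1 to 30.5. PSAT1, the enzyme between them, was 43.0, 49.1 and 47.6 FPKM against 70.4, 202 and 198 and was called higher, but its call was lost in 5 of the 6 leave-one-out fits (adjusted p 0.065 to 0.084). SHMT1 and GLUL (glutamine synthetase) were lower (30.0 to 32.3 against 8.10 to 8.90 and 30.2 to 30.9 against 7.90 to 12.8 FPKM). SLC7A11, the cystine carrier, was 2.36, 2.91 and 3.04 FPKM against 4.35, 17.0 and 15.6, SLC38A1 8.87 to 10.8 against 18.5 to 38.1, and GLUD1, which deaminates glutamate, 20.8 to 24.0 against 43.2 to 65.6.

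Antioxidant and glutathione genes were lower in 10 of 26 tested cases and higher in 5, against 25.7% and 26.3% of all genes. GSTP1, a glutathione transferase, was 0.0405, 0.0309 and 0.0349 FPKM in BT20 and 322, 156 and 166 in MDA-MB-231, and GPX3, a secreted glutathione peroxidase, was 0.138 to 0.226 against 52.0 to 84.3. NQO1, a quinone reductase and NRF2 target, was 804, 680.2 and 733 FPKM against 103, 67.6 and 69.9. AKR1C2 and AKR1C3 were lower too (37.7 to 63.3 against 0.0491 to 0.114 and 22.4 to 36.0 against 2.88 to 3.68 FPKM), though these near-identical genes may share reads, and CAT (catalase) was 3.98-fold lower by the ratio of means. Library 1 of MDA-MB-231 was above the others for GSTP1, as it was for S100A4 and NNMT.

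In glycolysis and the hypoxia response, 13 of 27 genes were higher and 5 lower, against 26.3% and 25.7% of all genes. NDRG1 (0.811 to 0.887 against 24.3 to 31.5 FPKM), the lactate exporter SLC16A3 (2.60 to 4.21 against 56.9 to 81.2), ENO2 (2.50 to 3.82 against 22.6 to 25.3), PFKM (1.45 to 2.14 against 11.2 to 16.4) and BNIP3 (3.96 to 4.77 against 23.5 to 35.1) were higher in MDA-MB-231. The other lactate carrier, SLC16A1, was lower (16.4, 14.3 and 13.9 FPKM against 0.316, 1.46 and 1.41), and so was the liver-type phosphofructokinase PFKL (42.7 to 47.6 against 17.9 to 26.7). The count of lower genes was 3 without BT20 replicate 3.

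Of 24 tested genes of cholesterol and fatty acid synthesis, 5 were higher and 7 lower, close to the shares of all genes. The desaturases FADS1 and FADS2 and the elongase ELOVL6 were higher in MDA-MB-231 (1.36 to 2.08 against 9.83 to 14.6, 0.372 to 0.501 against 10.1 to 12.5 and 1.94 to 2.94 against 11.9 to 15.4 FPKM). HMGCS1, at the head of the cholesterol pathway, was 30.1, 29.7 and 29.8 FPKM against 2.33, 4.10 and 3.78, and FASN (fatty acid synthase) was 98.4 to 106 against 33.0 to 45.8. The count of higher genes was 8 with median scaling and 8 without MDA-MB-231 replicate 1. Of the 13 respiratory chain genes of mitochondrial DNA, 4 were lower and none higher, against 25.7% and 26.3% of all genes. The 4 were lower by 0.59 to 0.72 on the log2 scale, but 0 were lower with median scaling and 2 with limma-voom. MT-ND4L and MT-ND5 kept their calls in all 6 leave-one-out fits, MT-ND6 lost its call in 4 and MT-CYB in 2 (without BT20 replicate 1 or MDA-MB-231 replicate 3), and without both libraries numbered 1 MT-ND4L and MT-CYB fell under the fold threshold.

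Proliferation genes were higher in 6 of 20 cases and lower in none, against 26.3% and 25.7% of all genes. Only the higher share was near that of all genes. The median log2 fold change was 0.36, against 0.04 over all tested genes. MCM3, a subunit of the replicative helicase, was 43.3 to 47.2 FPKM in BT20 and 115 to 144 in MDA-MB-231, and TYMS (thymidylate synthase) was 50.9 to 53.7 against 126 to 163. MKI67 was 8.48, 15.2 and 18.1 FPKM against 21.2, 48.9 and 44.2, without overlap, but lost its call without BT20 replicate 1 (adjusted p = 0.062) or MDA-MB-231 replicate 2 or 3 (0.060 each). With median scaling or limma-voom 10 genes of this list were higher. Of 11 housekeeping genes, 3 were higher (GUSB, TBP and RPLP0) and 1 lower (HPRT1), against 26.3% and 25.7% of all genes. Their median was -0.02. HPRT1 fell under the fold threshold without BT20 replicate 1 or MDA-MB-231 replicate 1, without further normalization, with median scaling and with limma-voom.

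Among 16 tested cyclins, kinases and inhibitors of the G1 phase, 8 were higher and 3 lower, against 26.3% and 25.7% of all genes. CCND1 (cyclin D1) was 53.5, 61.9 and 62.4 FPKM in BT20 and 102, 159 and 161 in MDA-MB-231, and its partner CDK6 was 2.54 to 3.30 against 7.90 to 8.44. The inhibitors CDKN1B (p27) and CDKN2C (p18) were lower (36.5 to 37.2 against 12.4 to 13.1 and 51.5 to 56.7 against 19.1 to 31.1 FPKM), while CDKN1A (p21) and CDKN2D (p19) were higher (12.4 to 21.6 against 28.2 to 32.0 and 11.6 to 12.2 against 26.2 to 38.4). CDKN2A (p16 and p14ARF) and CDKN2B (p15) were at or under 0.0154 FPKM in every library of both lines, and 30.9 to 38.2 and 6.37 to 7.23 in MDA-MB-468.

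The third G1 gene that was lower, MTAP, is the neighbour of CDKN2A on chromosome 9 and encodes the enzyme that recycles methylthioadenosine. It was 3.83, 3.70 and 3.77 FPKM in BT20 and 2.78 to 4.64 in MDA-MB-468, with 0 reads in all 3 MDA-MB-231 libraries. The stretch around it was therefore read gene by gene, a choice made after the values were seen. Between FOCAD (chr9:20658309-20995955) and TUSC1 (chr9:25676969-25678444; GRCh38, GENCODE v44) the annotation has 26 protein-coding genes, counting both ends, of which 17 were 0 in all 6 libraries. KLHL9 (chr9:21329665-21335404) was 8.23 to 11.3 FPKM in BT20 and 0 in MDA-MB-231, and DMRTA1 (chr9:22446824-22455740) was 0.297 to 0.613 and 0. FOCAD was 3.01 to 4.94 FPKM in BT20 and 0.0705 to 0.184 in MDA-MB-231, and TUSC1 was 12.5 to 16.9 against 5.47 to 10.9. In BT20, KLHL9 and MTAP were thus transcribed on one side of a silent CDKN2A and CDKN2B and DMRTA1 weakly on the other, while in MDA-MB-231 every gene from HACD4 to DMRTA1 other than CDKN2A (0.0122 FPKM in a single library) had no read. Copy number was not measured.

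Complete silence in a line was not confined to this stretch. Counting genes without a read in all 3 libraries of a line and averaging 5 FPKM or more in the other, 114 were 0 in MDA-MB-231 (50 protein-coding and 43 long noncoding) and 64 were 0 in BT20 (37 and 21).

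The libraries with 20 mM NAM for 48 h gave the same comparison in other samples. Of 14623 genes tested in both, 3803 were higher in MDA-MB-231 in the controls and 3305 with NAM, with 2631 in common (69.2% of the former and 79.6% of the latter). Lower were 3724 and 3371, with 2702 in common (72.6% and 80.2%), and none of the genes higher in the controls was called lower with NAM. Among differences above 4-fold, 565 higher genes (74.0% of the controls' and 79.2% of NAM's) and 626 lower genes (69.7% and 79.3%) were in common and none was opposite. The difference between the lines was therefore shared by most called genes under treatment, with 10 genes called lower in the controls and higher with NAM.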

How the data were processed

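RNA of 3 TNBC lines was sequenced by the authors as 3 control and 3 NAM libraries per line. According to the labels and methods, the authors trimmed reads with cutadapt 2.8, mapped them to GRCh38.p13 by TopHat2 2.1.1 and assigned them to genes by HTSeq 0.11.3. FPKM were deposited, computed by the authors from Ensembl gene lengths with cufflinks and neither filtered nor quantile-normalized. The labels name a stranded total RNA kit and the methods a TruSeq RNA kit, and the sources leave unclear whether control RNA was taken before NAM or in parallel with it.

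Of the 18 libraries, 6 were compared here. The FPKM moved in steps of whole reads, and reads per gene were recovered for 39935 of the 39935 genes above 0 (100% of values whole within 0.01 reads). The FPKM denominator of each library matched its reads on protein-coding genes, which numbered 14007631, 18320855 and 16249001 in BT20 and 11313668, 18896896 and 18971495 in MDA-MB-231. The median SD between libraries was 0.127 (BT20) and 0.193 (MDA-MB-231) on the log2 scale. Library 1 of MDA-MB-231 had the fewest reads.

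Lines were compared with limma 3.58.1 (R 4.3.3, moderated statistics) on quantile-normalized log2(FPKM + 1). The code was run on simulated data with few changed genes, as many up as down. That run cannot test the normalization in a comparison where most genes differ. With 3 against 3 libraries an exact test of a single gene could not go below p = 0.1, so none is given. Quantile normalization moved the median log2 fold change of all genes from -0.14 to 0.04. Libraries that share a number deviated together (correlations across genes of 0.646, 0.443 and 0.523), although libraries 2 and 3 did so as much when crossed (0.519 and 0.435), so a replicate block was run too, and its values stand beside a result only where they change a call. Deviations of 3 libraries sum to 0, so the check rests on replicate 1. Alternatives were other scalings, pseudocounts of 0.1 and 0.5, other filters, limma-voom on the recovered reads, the spread of 9 control libraries, the NAM libraries and leaving out each library.

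The comparison and its 34 gene lists were chosen with earlier results of these data known. Of 710 listed genes 709 were found and 561 tested, and a symbol with several Ensembl genes is represented by the most abundant. Named are the 15 largest changes per direction among called genes without overlap and with a higher mean of at least 5 FPKM, up to 6 called members per direction of a list, members called against a list's main direction, all EMT transcription factors and microRNA hosts, and EPCAM, CDH1, VIM, ESR1, PGR and ERBB2. Unlisted or uncalled genes named beside these (marker genes, COL1A2, COL3A1, YAP1, WWTR1, TEAD1, CDKN2A, CDKN2B and the chromosome 9 stretch) were chosen after their values were seen. Gene names and coordinates come from GENCODE v44 on GRCh38, and sequences from RefSeq (GRCh38.p14). Some genes that the rule names are not reported here.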

Additional observations from a re-analysis of the deposited data

Results flagged for a closer look

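The difference between the lines had opposite directions without and with NAM in 10 genes, all called lower in untreated MDA-MB-231 than in untreated BT20 and higher in treated MDA-MB-231 than in treated BT20. A limma fit of the 12 libraries of both lines tested the change in the line difference (with NAM minus without, log2). It passed for 9 of the 10: HTRA1 (1.97, adjusted p = 0.015), TLCD1 (1.97, 0.043), STING1 (1.94, 0.0023), FGFR3 (1.71, 0.022), MVP (1.53, 0.031), OPLAH (1.403, 0.026), NEK8 (1.36, 0.018), WDR90 (1.30, 0.022) and SLC43A2 (1.29, 0.013). VASN had the widest change (2.11) and did not pass (adjusted p = 0.057). STING1, the adaptor of cytosolic DNA sensing, was 8.33 to 9.05 FPKM in untreated BT20 and 2.60 to 3.09 in untreated MDA-MB-231, and with NAM it was 3.49 to 4.99 and 6.47 to 7.56. HTRA1, a secreted serine protease, was 11.4 to 13.2 and 2.60 to 6.13 FPKM without NAM and 14.3 to 16.1 and 20.4 to 31.7 with it. These genes were picked for being opposite in these same libraries.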

How the results depend on the processing

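Leaving out each library in turn gave 3744 to 4264 genes higher in MDA-MB-231, 3736 to 4081 lower, 799 to 822 higher by over 4-fold and 894 to 927 lower by over 4-fold. The counts above 4-fold grew with a pseudocount of 0.1 (1503 higher, 1678 lower) and with limma-voom on recovered reads (1257 and 2196); both scales compress weakly expressed genes less than log2(FPKM + 1). All other alternatives left the 4 counts within 1.5 times. Without further normalization the split was 3290 higher and 4790 lower, 40.7% higher in place of 50.6%. The replicate block gave 4267 higher and 4129 lower and changed no call of the 295 named genes tested. Without both libraries numbered 1, an alternative chosen after seeing the data, the counts were 4341 and 4174.

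Of 292 named genes called, 272 kept their call in all 6 leave-one-out fits. In the NAM libraries 284 named genes were tested, of which 43 lost their call with the same sign and 12 had the opposite sign (log2 fold change). Of the 12, only SLC43A2 (0.67, limma adjusted p = 0.025) and STING1 (0.80, 0.018) were called there. Not called were BST2 (0.12), CDKN2C (0.17), COL18A1 (0.11), IFI35 (0.97), IFI6 (0.47) and IRF7 (0.12). The same held for LTBP3 (0.51), OAS3 (0.23), PSAT1 (-0.29) and PSMB9 (0.60). The adjusted p of these uncalled genes ran from 0.062 to 0.82. The cause was not tested. Of 1224 list counts recomputed, 1159 stayed within 1.5 times. Depth limits the genes near 0, where a library of 11313668 reads holds few or no reads per gene.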
